A study of Mus musculus with 72 samples.

Results

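The 10 genes described here belong to the p53 response that can end in cell death: Bax, Bbc3, Pmaip1, Fas, Tnfrsf10b, Eda2r, Aen, Perp and Ei24, each known as a transcriptional target of p53, and Trp53, the gene of p53 itself. They were chosen by name from the gene names of the array design, and each is represented by its brightest detected probe. Of the 10 genes, 9 had a probe that passed the detection filter and were tested among 16098 genes, and Eda2r did not pass. RNA came from the blood of male C57BL/6 mice, depleted of globin transcripts, and was measured on 72 one-colour arrays, each a sample of its own. Mice received whole-body irradiation with 0.25 or 1 Gy of neutrons, from a beam that also carried a smaller gamma-ray part, or with 1 or 4 Gy of x-rays, and controls were sham-irradiated. The exposures are called N0.25, N1, X1 and X4, for neutrons or x-rays and the dose in Gy. At day 1 the groups held 5 controls and 6 (N0.25), 6 (N1), 6 (X1) and 5 (X4) irradiated mice. At day 7 they held 6, 5, 6, 5 and 6 mice in the same order. A further 16 arrays carry the label day 3, with 5 controls, 6 mice of N0.25 and 5 of X1.

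p53 is a transcription factor that is stabilised after DNA breaks and then activates genes of arrest, repair and death. In the mitochondrial pathway, BH3-only proteins such as Puma (Bbc3) and Noxa (Pmaip1) bind the survival members of the BCL2 family, and Bax opens the outer membrane. In the receptor pathway, Fas and Tnfrsf10b bind their ligands on the cell surface and recruit caspase-8. Aen is a nuclease, Perp a membrane protein of cell junctions, and Ei24 a membrane protein of the endoplasmic reticulum. Lymphocytes, above all B cells, are among the most radiosensitive cells of blood.

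Promoter sequence was available for 7 of the 10 genes, with 10 annotated starts, in RefSeq's annotation of GRCm38.p6. The p53 half-site consensus, which reads the same on both strands, was searched in the 250 bases before each start, and no other motif was searched. It matched before 4 of the 10 starts, of Bax, Aen, Ei24 and Trp53, while 7.13% of the 32851 promoters in the table hold a match. None was found before the starts of Bbc3, Fas and Eda2r. Bax, Aen, Ei24 and Trp53 were called after irradiation at day 1, and so were Bbc3 and Fas, which had no match. The stretches below are those that hold a match. They read 5′ to 3′ on the strand of the gene, with the matching bases in capitals. Bax lies on the minus strand (chr7:45467030-45467148), Aen on the plus strand (chr7:78895927-78895956), Ei24 on the minus strand (chr9:36797335-36797404) and Trp53 on the plus strand (chr11:69580224-69580347).
Bax: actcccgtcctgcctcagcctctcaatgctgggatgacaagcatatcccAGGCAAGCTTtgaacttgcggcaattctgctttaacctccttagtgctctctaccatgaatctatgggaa
Aen: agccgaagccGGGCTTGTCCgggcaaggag
Ei24: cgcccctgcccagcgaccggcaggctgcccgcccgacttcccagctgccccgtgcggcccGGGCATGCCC
Trp53: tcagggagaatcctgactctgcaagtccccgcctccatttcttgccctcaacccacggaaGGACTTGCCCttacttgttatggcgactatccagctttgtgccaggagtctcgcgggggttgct

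The match of Ei24 ends at the base before its annotated start, that of Trp53 lies 65 bases before the start and that of Bax 191 bases before it. The match of Aen lies 111 bases before the second annotated start and begins at base 11 after the first one. A match to 1 half-site describes the letters of the window and is not a measured binding site.

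Levels are log2 intensities relative to the median of the detected probes of the same array, so a level compares arrays for 1 probe and not genes with each other. Of the 12 probes of the 10 genes, no spot was saturated on any array. Both probes of Eda2r, a receptor of the tumour necrosis factor receptor family, were dim, with 0 and 1 of 72 arrays well above background, the latter being replicate 3 of X4 at day 7. No fold change is therefore given for Eda2r. The probe of Tnfrsf10b was well above background on 68 of 72 arrays, and the other 4 were all of N1 at day 7. In the design of the array, the probe of Trp53 is placed at chr17:54560025-54560084 of mm9, whereas the gene lies on chromosome 11, and RefSeq lists the pseudogene Trp53-ps on chromosome 17. Signal from the gene and from the pseudogene cannot be told apart. Both probes of Aen, at chr4:14158332-14158391 and chr4:14158342-14158401 of mm9, also lie away from the gene, which is on chromosome 7. The design names both by a transcript of Aen. Values given for Aen are the signal of its probe, and signal from the gene and from the chromosome 4 site cannot be told apart.

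The arrays differed in the RNA of other cells. Markers of hepatocytes, which blood does not contain, were measured by 24 of 25 listed genes, among them Alb and Ttr, and their mean log2 level ran from -1.68 to 5.78 in the day 1 controls and from 6.75 to 7.96 after X4 at day 1. In the day 7 controls it lay between -5.01 and -3.20, and after X4 at day 7 between -5.57 and 6.41. Only 9 of the 24 hepatocyte markers passed the detection filter, and the mean took all 24. In the day 7 controls, 9 of them were well above background on no array and 7 on every array, so low hepatocyte levels are partly background signal. B cell markers, measured by 14 of 15 listed genes, had a median level of 2.89 in the day 1 controls, 0.29 after N1 and -1.55 after X4. At day 7 their median was 2.48 in the controls, 0.57 after N1 and -0.29 after X4. Markers of red cell precursors had a median level of 1.98 in the day 1 controls and -0.07 after X4, and of 2.41 in the day 7 controls and 5.06 after N1. The part of these shifts in the results on the 10 genes was not tested. In bulk blood RNA, fewer cells of a type and less RNA per cell cannot be told apart.

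Each group was compared with the controls of its day by limma. The term called stands for a p below 0.001 that also kept the FDR, by Benjamini and Hochberg over the 16098 genes, below 0.05. At day 1, 5 of the 9 genes were called after N1, where 16.3% of all genes were (5.62% higher, 10.7% lower). Bax, Bbc3, Fas and Aen rose and Trp53 fell. After X1, 4 of 9 genes were called against a background of 6.45% (2.66% higher), namely Bax, Bbc3, Tnfrsf10b and Aen, all of which rose. After X4, 6 of 9 genes were called against a background of 29.4% (12.8% higher, 16.6% lower), with Bax, Fas, Aen, Perp and Ei24 higher and Trp53 lower. After N0.25 none was called (background 0.00621%), and 3 had an unadjusted p below 0.05, as did 2474 of the 16098 genes. The median log2 fold change of the 9 genes was 0.26 after N0.25, 0.82 after N1, 0.62 after X1 and 0.97 after X4. Over all genes tested the medians were 0.01, -0.08, -0.00 and -0.09. These comparisons share the 5 control mice of day 1. With normexp background correction in place of the scanner's processed signal, none of the 9 genes was called after either exposure to 1 Gy, and Aen, Perp and Ei24 were called after X4.

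Fewer of the genes were called at the later days. None was called by limma at day 3, where 1.53% of all genes were after N0.25 and 1.56% after X1, and 3 of the 9 genes in each comparison had an unadjusted p below 0.05. Below that p lay 3871 of the 16098 genes tested after N0.25 and 3001 after X1. At day 7, Bax and Ei24 rose after X4 (2 of 9 genes, background 15.8%, of which 7.72% higher). None of the 9 genes was called by limma at day 7 after N0.25 (background 0.547%), N1 (36.2%) or X1 (3.74%), with 0, 3 and 1 genes at an unadjusted p below 0.05. Below that p lay 3692, 10056 and 4134 of the 16098 genes tested, in the same order. The N1 group of day 7 had the highest share of called genes of any group set against controls, and the median log2 fold change of the 9 genes there was -0.00, beside -0.05 over all genes. Centred on the spike-in controls instead, the median over all genes was -1.94 and all 9 genes were called lower, so that the direction in this group depends on the scaling. On its arrays 40.2 to 50.3% of spots were well above background, against 49.5 to 58.2% in N0.25 and 54.3 to 63.9% in the controls of that day.

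**Figure D1:**
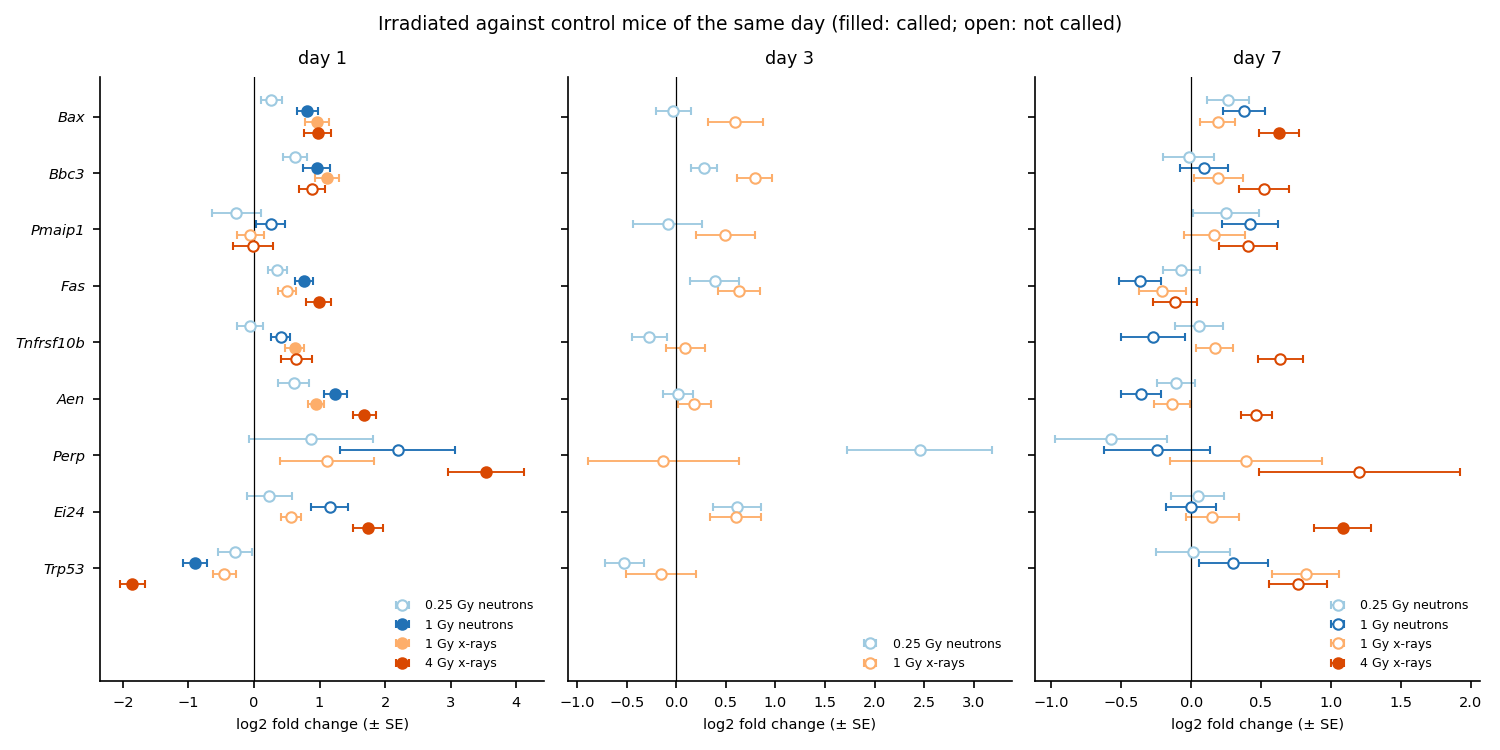
Log2 fold change (± SE) of the 9 tested genes, irradiated against control mice of the same day, one panel per day, by limma; filled points were called at p below 0.001 and FDR below 0.05, open points were not. At day 1 the filled points of Bax lie between 0.82 and 0.97 in 3 exposures, Perp after X4 lies at 3.54, and Trp53 is the gene with filled points below 0.

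Bax, the effector that opens the mitochondrial membrane, was higher in every mouse of the groups with 1 Gy or more than in any control at day 1. The controls had log2 levels of 3.00, 2.93, 2.51, 2.31 and 2.61. After N1 the levels ran from 3.28 to 3.72 (median 3.46, n = 6), and after X1 from 3.03 to 3.95 (median 3.68, n = 6). The 5 mice given X4 had 3.73, 3.50, 3.35, 3.47 and 4.16. These groups did not overlap with the controls, while the 6 mice given N0.25, from 2.67 to 3.03, did. The log2 fold change was 0.82 after N1 (SE 0.16, 1.76-fold, adjusted p = 0.00256), 0.96 after X1 (SE 0.19, adjusted p = 0.00756) and 0.97 after X4 (SE 0.20, adjusted p = 0.00204). The call after X4 was lost without controls 3, 4 or 5 and without replicate 1 or 5 of the irradiated mice, with log2 fold changes of 0.84 to 1.05 over the 10 fits that left out 1 array.

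At day 7 the Bax level of the 6 controls ran from 2.16 to 2.76 (median 2.48) and that after X4 from 2.66 to 3.41 (median 3.07). Of the latter, 5 of 6 mice lay above every control, and the log2 fold change was 0.63 (SE 0.14, 1.54-fold, adjusted p = 0.0051). This call was kept in only 2 of 12 fits that left out 1 array, those without control replicate 3 or without replicate 6 of the X4 mice, with log2 fold changes of 0.56 to 0.71 and adjusted p-values of at most 0.0122 over the 12. After N1 5 of 6 mice lay above every control as well, at a log2 fold change of 0.38 (SE 0.15 and adjusted p = 0.0466), which did not pass p below 0.001. The highest Bax level of all arrays, 4.40, was that of replicate 1 of X1 at day 3.

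Bbc3 (Puma) rose at day 1 after both exposures to 1 Gy. Its levels in the controls were 1.72, 2.19, 1.64, 1.46 and 1.68. After X1 they ran from 2.49 to 3.32 (median 2.74), above every control, with a log2 fold change of 1.11 (SE 0.18, 2.16-fold, adjusted p = 0.00327). After N1 5 of 6 mice lay above every control, from 2.11 to 3.15 (median 2.76), and the log2 fold change was 0.96 (SE 0.21 and adjusted p = 0.00438). The call after N1 was kept in 3 of 11 fits that left out 1 array, those without control replicate 2 or without replicate 1 or 3 of the neutron mice, and the log2 fold change ranged from 0.87 to 1.08 over the 11. The 5 mice given X4 had 3.04, 2.42, 2.18, 2.63 and 2.84, a log2 fold change of 0.89 (SE 0.20 and adjusted p = 0.00352) whose unadjusted p of 0.00105 missed the threshold, and it was called without replicate 2 of the controls or without replicate 3 of the irradiated mice.

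At the lower neutron dose Bbc3 had the smallest p of the 9 genes. The 6 mice of day 1 had levels of 2.04 to 2.83, of which 4 lay above every control, and the log2 fold change was 0.62 (SE 0.18 and adjusted p = 0.205). At day 3 after X1 the levels were 2.76, 2.31, 2.02, 2.13 and 2.50, against 1.77, 1.43, 1.5, 1.59 and 1.46 in the controls. These groups did not overlap, and the log2 fold change of 0.79 (SE 0.18 and adjusted p = 0.0546) was not called. Without replicate 1 or without replicate 3 of the x-ray mice it was. At day 7 the values were 0.09 (SE 0.17) after N1, 0.19 (SE 0.18) after X1 and 0.52 (SE 0.18, adjusted p = 0.0377) after X4.

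Pmaip1 (Noxa) was called in none of the 19 comparisons. Its levels in the day 1 controls ran from 0.86 to 1.51, and those of the irradiated groups of that day overlapped with them. The log2 fold changes at day 1 were -0.27 (SE 0.37) after N0.25, 0.25 (SE 0.22) after N1, -0.05 (SE 0.21) after X1 and -0.01 (SE 0.31) after X4. The largest difference from controls was 0.49 (SE 0.30, adjusted p = 0.416), after X1 at day 3. The spread within groups was wide, with levels from 0.20 to 1.72 among the 5 mice given X4 at day 1.

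Fas, the death receptor that binds Fas ligand, was higher at day 1 in every mouse given N1 or X4 than in any control. The controls had 0.59, 1.08, 0.53, 0.74 and 0.53. After N1 the levels lay close together, from 1.32 to 1.59 (median 1.46), with a log2 fold change of 0.77 (SE 0.13, 1.70-fold, adjusted p = 0.00162). After X4 they were 1.44, 1.51, 1.52, 2.26 and 1.67, with a log2 fold change of 0.98 (SE 0.20 and adjusted p = 0.00151). The latter call was lost without replicate 1, 3 or 5 of the controls, with adjusted p-values of at most 0.00574 over the 10 fits that left out 1 array. After X1 5 of 6 mice lay above every control, and the log2 fold change of 0.50 (SE 0.14 and adjusted p = 0.0313) was not called except without replicate 2 of the controls.

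By day 7 the Fas level was no longer above the controls, which ran from 0.65 to 1.06 (median 0.94). The mice given N1 had 0.21 to 0.83 (median 0.52), of which 3 of 6 lay below every control, and the log2 fold change was -0.36 (SE 0.15 and adjusted p = 0.0519). After X4 the levels ran from 0.15 to 1.04 (median 0.88) around those of the controls, with a log2 fold change of -0.11 (SE 0.16).

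Tnfrsf10b, the mouse receptor for the TRAIL ligand, was called after X1 at day 1. Its levels were -1.97, -1.87, -2.39, -2.32 and -1.82 in the controls and -1.74 to -1.23 (median -1.42) in the 6 x-ray mice, without overlap. The log2 fold change was 0.62 (SE 0.14, 1.54-fold, adjusted p = 0.0151), with an unadjusted p of 0.000956. It was called in 2 of 11 fits that left out 1 array, those without control replicate 5 or without replicate 1 of the x-ray mice, with log2 fold changes of 0.54 to 0.68 over the 11. After X4 the fold change was of similar size, 0.65 (SE 0.23, adjusted p = 0.0326) at day 1 and 0.64 (SE 0.16, adjusted p = 0.00828) at day 7, and neither was called. At day 7 all 6 mice lay above every control, from -2.04 to -1.30 against -2.58 to -2.08, and without replicate 6 of these mice the gene was called.

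**Figure D2:**
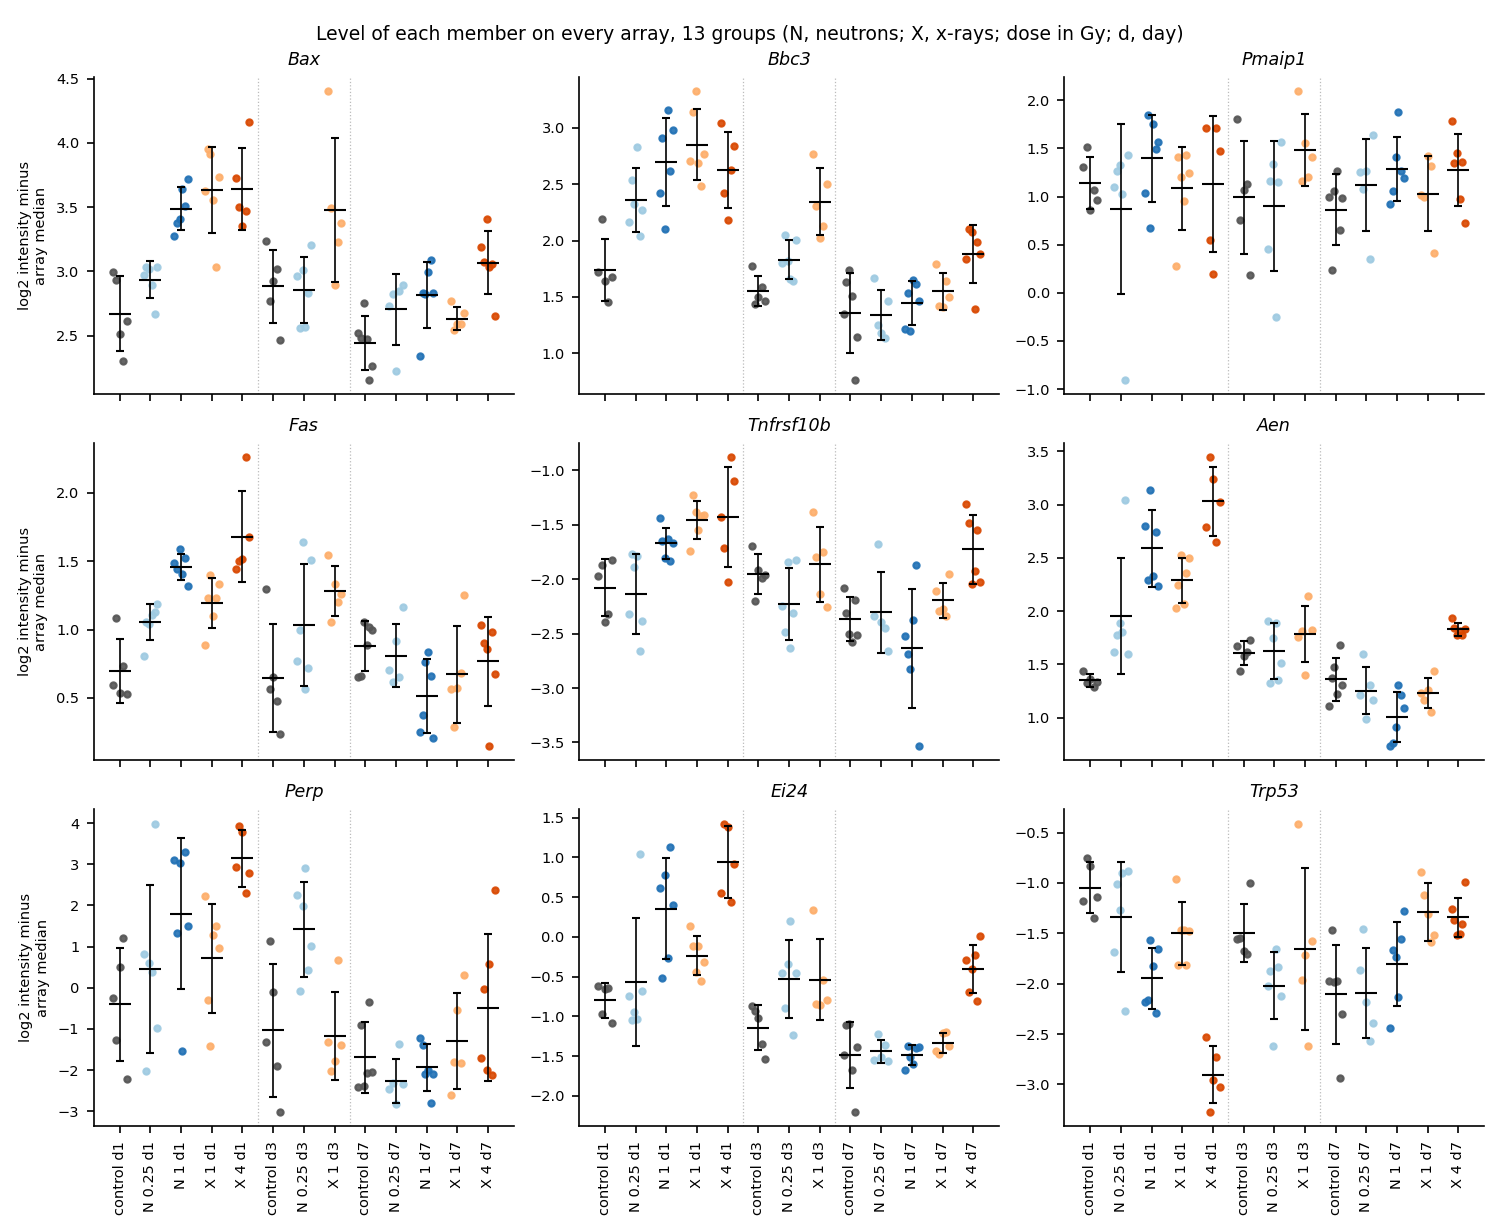
Log2 intensity minus the array median for the 9 tested genes on every array, one panel per gene; each point is 1 mouse, bars give the mean and SD of the group, dotted lines divide days 1, 3 and 7, N is neutrons, X x-rays, the number the dose in Gy and d the day. The day 1 controls of Aen lie between 1.29 and 1.44, below all irradiated mice of that day, and the levels of Perp spread over more than 3 log2 units within several groups.

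Aen had the tightest controls of the 9 genes at day 1, with levels of 1.44, 1.32, 1.37, 1.29 and 1.34. All 23 irradiated mice of that day lay above them. After N0.25 the levels were 1.60 to 3.05 (median 1.79), after N1 2.23 to 3.14 (median 2.54) and after X1 2.03 to 2.53 (median 2.31). The 5 mice given X4 had 2.79, 3.44, 3.24, 2.65 and 3.03. The log2 fold changes were 1.24 after N1 (SE 0.17, 2.36-fold, adjusted p = 0.000645), 0.94 after X1 (SE 0.12, 1.92-fold, adjusted p = 0.00137) and 1.68 after X4 (SE 0.17, 3.20-fold, adjusted p = 3.72e-05). After N0.25 the value of 0.60 (SE 0.24, adjusted p = 0.275) was not called, and 1 mouse, replicate 5, had the level of 3.05 while the next highest had 1.89.

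At day 7 Aen was called in no comparison with controls. The 6 mice given X4 had 1.77 to 1.94, all above the controls of 1.11 to 1.69, with a log2 fold change of 0.47 (SE 0.11 and adjusted p = 0.00695) that was called only without replicate 5 of the controls. The mice given N1 had 0.74 to 1.31 (median 1.00), of which 4 of 6 lay below every control, at -0.36 (SE 0.14, adjusted p = 0.0485).

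Perp and Ei24 were called after X4 at day 1. The levels of Perp in the controls were -0.26, -1.26, 0.50, 1.22 and -2.21, and those of the irradiated mice 2.92, 3.92, 3.78, 2.29 and 2.78, without overlap. Its log2 fold change of 3.54 (SE 0.58, 11.6-fold, adjusted p = 0.000503) was the largest of the 9 genes in any comparison with controls. Ei24 had -0.62, -0.97, -0.66, -0.65 and -1.09 in the controls and 0.56, 1.42, 1.38, 0.44 and 0.92 in these mice, again without overlap, with a log2 fold change of 1.74 (SE 0.22, 3.34-fold, adjusted p = 0.000131). After N1 Perp differed by 2.19 (SE 0.88, adjusted p = 0.0604) and Ei24 by 1.15 (SE 0.28, adjusted p = 0.00757), and neither was called. Without replicate 4 of the neutron mice both were, and Ei24 also without replicate 2. After X1 all 6 mice lay above every control for Ei24, from -0.55 to 0.13, at a log2 fold change of 0.56 (SE 0.15 and adjusted p = 0.0278).

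The hepatocyte level of each array was set beside the levels of Perp, Ei24 and Aen. Replicate 4 of N1 at day 1 had the lowest hepatocyte level of its group, -1.71, and the lowest Perp level of its group, -1.53, while the other 5 mice had hepatocyte levels of 5.80 to 7.25 and Perp levels of 1.34 to 3.30. In the same mouse Ei24 was at -0.27, Bax at 3.64, Fas at 1.41 and Aen at 2.33, each above every control of the day. Replicate 5 of N0.25 at day 1 had the highest hepatocyte level of all arrays, 8.26, and also the highest Perp level, 3.99. For Aen, the 3 mice of N1 at day 1 with hepatocyte levels of 6.75 to 7.25 had 2.74 to 3.14, and the other 3 had 2.23 to 2.33. In N0.25 at day 3, the mice with hepatocyte levels of 6.27 and 7.13 had Aen levels of 1.91 and 1.89, and the lowest Aen level, 1.33, was that of the mouse with the lowest hepatocyte level, 3.46. X1 at day 1 ran the other way. Its lowest hepatocyte level, 1.74, went with its highest Aen level, 2.53, and its highest hepatocyte level, 6.58, with its lowest Aen level, 2.03. Across the day 1 controls Aen stayed between 1.29 and 1.44 at hepatocyte levels of -1.68 to 5.78. In X4 at day 1, replicates 1 to 5 had hepatocyte levels of 7.21, 7.96, 7.81, 6.75 and 6.85. Their Ei24 levels were 0.56, 1.42, 1.38, 0.44 and 0.92, and their Aen levels 2.79, 3.44, 3.24, 2.65 and 3.03. Replicate 5 of N0.25 at day 1, at 8.26, had an Ei24 level of 1.04, above the rest of its group. In N1 at day 1, the lowest Ei24 level, -0.52, was at a hepatocyte level of 5.80. Replicate 1 of N1 at day 7 had the highest hepatocyte level of its group, 2.21, and the lowest Ei24 level, -1.68. The Ei24 levels of that group lay close together, from -1.68 to -1.37, so this mouse cannot show whether Ei24 follows the markers. With the hepatocyte level as a covariate in the fit, the log2 fold change after X4 at day 1 was 1.5 for Perp and 1.35 for Ei24, neither of them called, 1.60 for Aen and -1.63 for Trp53, both called, and 1.25 for Bax and 1.20 for Fas, neither called. After N1 at day 1 Bax, Bbc3, Fas and Aen were called in that fit, Aen at 1.16, and Trp53, at -0.82, was not. All 5 mice given X4 had a higher hepatocyte level than any control of day 1, so that the covariate and the group do not overlap there and the adjusted values are extrapolated.

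**Figure D3:**
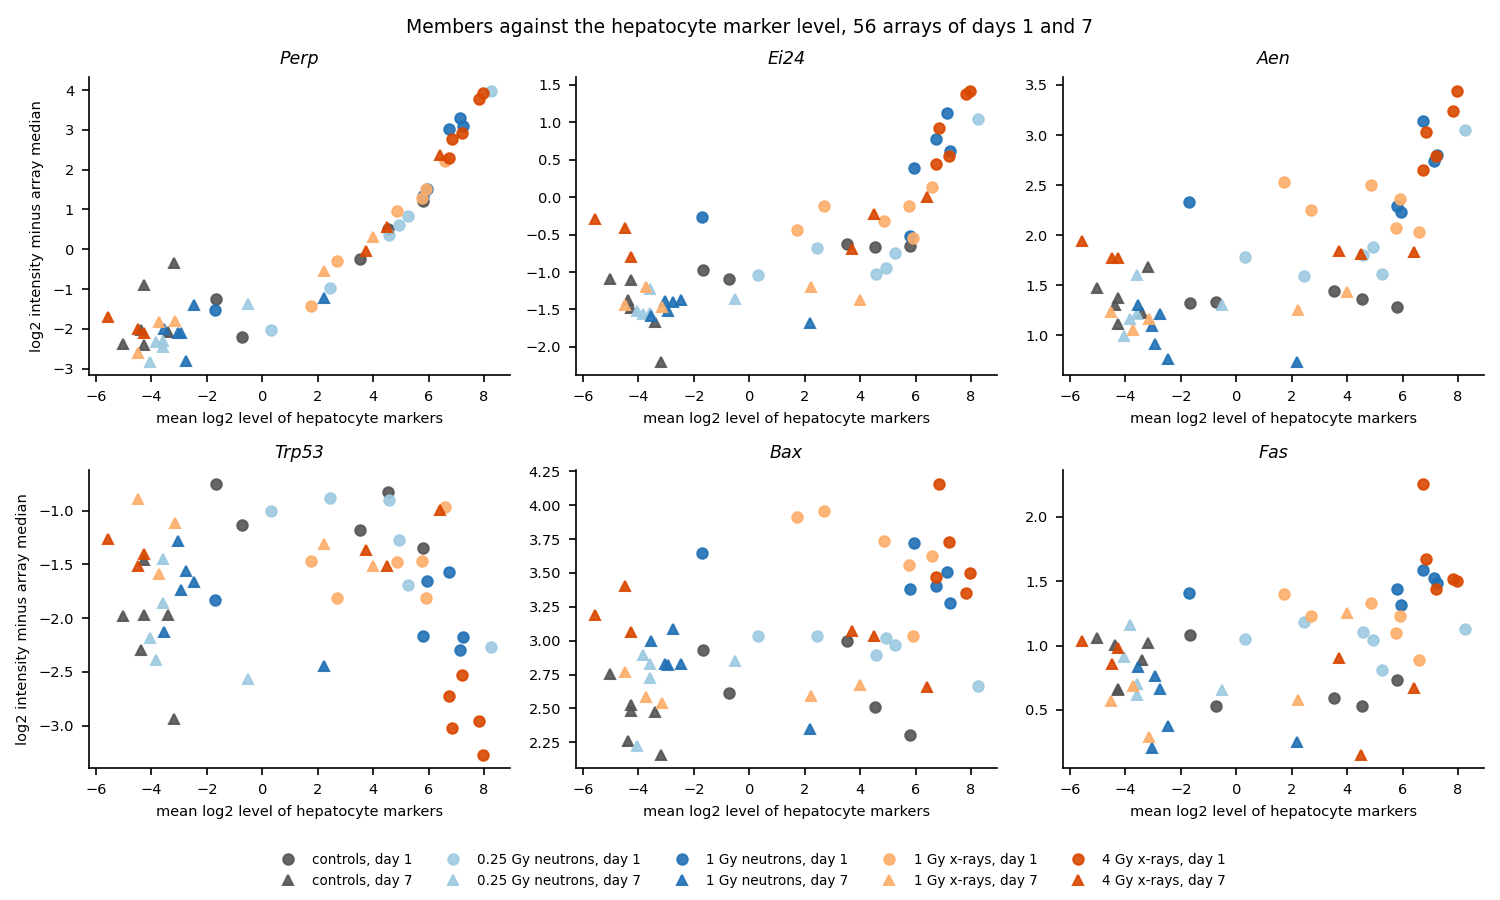
Log2 level of Perp, Ei24, Aen, Trp53, Bax and Fas (y axes, relative to the array median) against the mean log2 level of the hepatocyte markers (x axes) on the 56 arrays of days 1 and 7; each point is 1 mouse, circles are day 1 and triangles day 7, with colours for the exposures. The highest Perp level, 3.99, lies at the highest hepatocyte level, 8.26, while the Ei24 level of the X4 mice at day 7 lies between -0.80 and 0.01 at both low and high hepatocyte levels.

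At day 7 Ei24 rose after X4. The 6 irradiated mice had -0.80 to 0.01 (median -0.35) and the controls -2.20 to -1.09 (median -1.43), without overlap, and the log2 fold change was 1.08 (SE 0.20, 2.12-fold, adjusted p = 0.0016). The call was kept in all 12 fits that left out 1 array. Replicates 1, 3 and 5 of these mice, with hepatocyte levels of -5.57, -4.47 and -4.28 like those of the controls, had Ei24 levels of -0.29, -0.41 and -0.80, each above the highest control. The Perp levels of the same 3 mice, -1.70, -2.01 and -2.11, lay within those of the controls, and replicates 2, 4 and 6, with hepatocyte levels of 3.73, 4.50 and 6.41, had Perp levels of -0.04, 0.57 and 2.37. The part of hepatocyte RNA in these Ei24 and Perp values was not tested. In the groups given N0.25, N1 and X1, Ei24 differed from the day 7 controls by 0.05 (SE 0.19), -0.00 (SE 0.18) and 0.15 (SE 0.19).

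The signal of the Trp53 probe moved the other way at day 1. The controls had -1.18, -0.75, -0.83, -1.35 and -1.14. After N1 the levels were -2.29 to -1.57 (median -2.0), below every control, with a log2 fold change of -0.90 (SE 0.18 and adjusted p = 0.00307) that was not called without replicate 2 or without replicate 3 of the controls. The 5 mice given X4 had -2.53, -3.27, -2.96, -2.72 and -3.03, also below every control, and the log2 fold change was -1.85 (SE 0.19 and adjusted p = 3.23e-05). After X1 5 of 6 mice lay below every control, at -0.45 (SE 0.17, adjusted p = 0.0938). Of the B cell markers, 13, 9 and 13 of 13 fell at day 1 after N1, X1 and X4, of the T cell markers 4, 0 and 9 of 15, and of the red cell precursor markers 2, 8 and 10 of 15. Their part in the Trp53 values was not tested. At day 7 the direction differed, with 0.82 (SE 0.24, adjusted p = 0.0558) after X1 and 0.76 (SE 0.21, adjusted p = 0.0133) after X4, neither called, the latter except without replicate 2 of the controls. In these groups 3 and 13 of the 13 B cell markers and 0 and 1 of the 15 T cell markers were called lower. Of the 15 red cell precursor markers, 11 and 7 were called higher. The part of these markers in the day 7 values was not tested. The Trp53 levels of the day 7 controls ran from -2.94 to -1.46 (median -1.98), below those of day 1.

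The study asked whether neutrons and x-rays differ, and the irradiated groups were compared with each other directly. Between N1 and X1 none of the 9 genes was called by limma at day 1, where 9.62% of all genes were and 3 of the 9 had an unadjusted p below 0.05, or at day 7, where 20% were and 1 of the 9 had. Of the 16098 genes tested, 5654 at day 1 and 9043 at day 7 lay below that p. At day 1 the differences, neutrons minus x-rays, were -0.15 (SE 0.16) for Bax, -0.15 (SE 0.20) for Bbc3 and 0.30 (SE 0.17) for Aen. The 3 genes at an unadjusted p below 0.05 were Trp53, at -0.45 (SE 0.18, adjusted p = 0.0945), Ei24, at 0.59 (SE 0.26, adjusted p = 0.128), and Fas, at 0.27 (SE 0.11, adjusted p = 0.113), which was higher in 5 of 6 neutron mice than in every x-ray mouse. Between N1 and X4 none of the 9 genes was called at day 1, where limma called 0.0311% of all genes and 1 of the 9, Trp53, had an unadjusted p below 0.05 (0.95, SE 0.19, adjusted p = 0.125). Of the 16098 genes, 2943 lay below that p in this comparison.

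At day 7, for the same pair of exposures, Aen was lower after N1 than after X4 by -0.82 (SE 0.13, adjusted p = 0.000126) and Ei24 by -1.09 (SE 0.15, adjusted p = 4.63e-05), without overlap of the 6 and 6 mice (2 of 9 genes, a smaller share than the 37.3% of all genes called, of which 14.6% lower). Centred on the spike-in controls, all 9 genes were called lower and the median over all genes was -2.36, so that the count depends on the scaling. Tnfrsf10b differed by -0.91 (SE 0.24, adjusted p = 0.00531), called only without replicate 5 of the neutron mice. Its probe was not well above background in 4 of these mice.

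Between the x-ray doses, Ei24 and Trp53 were called at day 1. Ei24 was higher after 4 than after 1 Gy by 1.18 (SE 0.21, adjusted p = 0.00169) and Trp53 lower, at -1.40 (SE 0.19, adjusted p = 0.00031), without overlap in either (2 of 9 genes, background 16.1%, with 3.69% higher and 12.4% lower). Aen, at 0.74 (SE 0.18, adjusted p = 0.007), and Perp, at 2.43 (SE 0.58, adjusted p = 0.00714), were higher in all 5 of the 4 Gy mice than in every 1 Gy mouse and were not called, except Aen without replicate 4 of the 4 Gy mice and Perp without replicate 1 or 3 of the 1 Gy mice. Fas was also higher in all 5 of the 4 Gy mice than in every 1 Gy mouse, at 0.48 (SE 0.17, adjusted p = 0.0453), and was not called. Bax, Bbc3 and Tnfrsf10b had differences of 0.01 (SE 0.20), -0.23 (SE 0.20) and 0.03 (SE 0.20), none of them called. At day 7 Aen was higher after 4 Gy by 0.60 (SE 0.11, adjusted p = 0.00387) and Ei24 by 0.93 (SE 0.16, adjusted p = 0.00277), again without overlap (2 of 9 genes, background 7.81%, of which 3.68% higher).

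**Figure D4:**
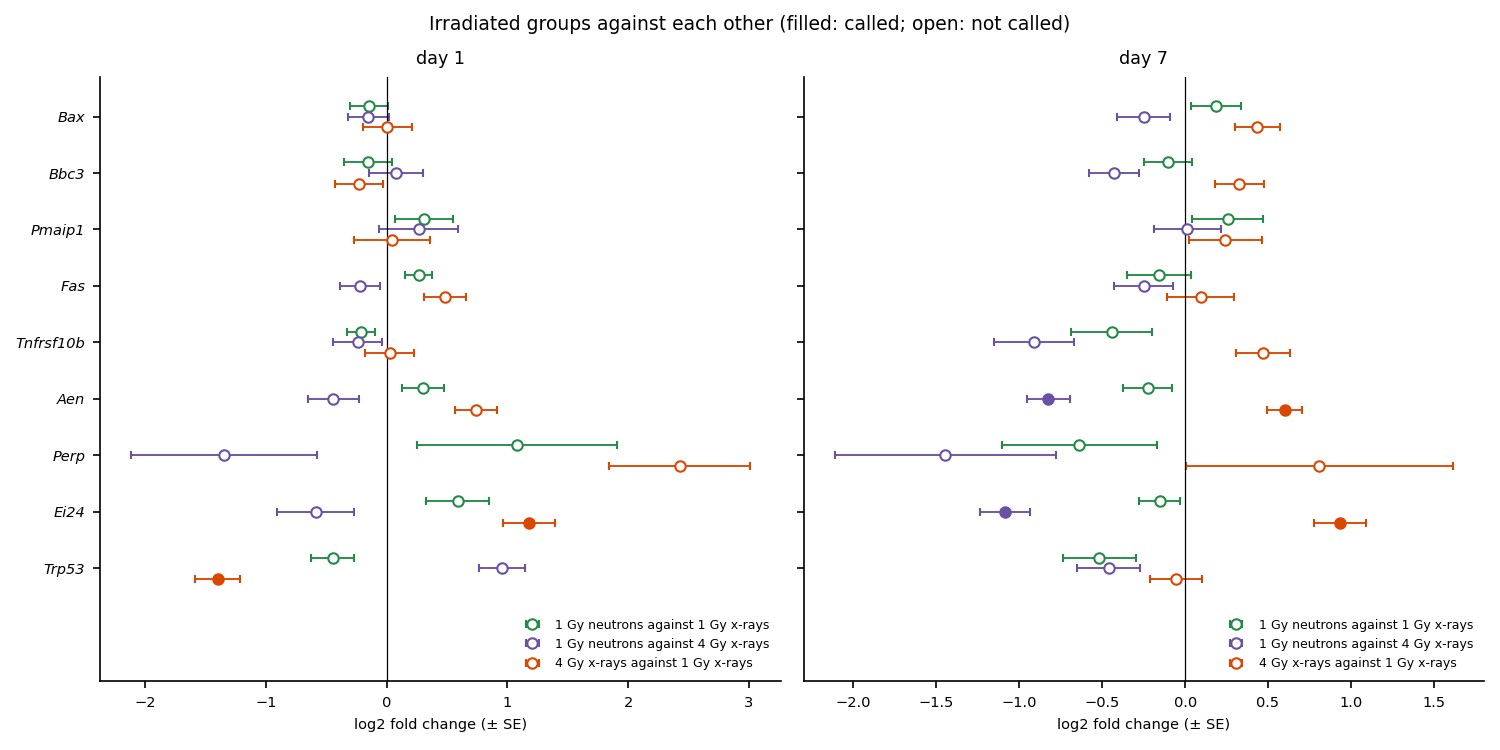
Log2 difference (± SE) between irradiated groups for the 9 tested genes at days 1 and 7, by limma, as named in the key (the first exposure minus the second); filled points were called at p below 0.001 and FDR below 0.05. Ei24 is filled in 3 of the 6 comparisons, Aen in 2 and Trp53 in 1, and N1 against X1 has open points only.

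The change from day 1 to day 7 was tested as the effect at day 7 minus that at day 1. Aen returned towards the controls in all 3 exposures tested, by -1.60 (SE 0.22, adjusted p = 5.44e-06) after N1, -1.07 (SE 0.17, adjusted p = 0.000189) after X1 and -1.21 (SE 0.19, adjusted p = 5.57e-05) after X4. Fas changed by -1.13 (SE 0.19, adjusted p = 6.7e-05) after N1 and by -1.10 (SE 0.24, adjusted p = 0.00152) after X4. Trp53 changed upward in all 3, by 1.20 (SE 0.32, adjusted p = 0.00414), 1.27 (SE 0.30, adjusted p = 0.00696) and 2.62 (SE 0.28, adjusted p = 1.22e-06), but after N1 its direction turned with centring on the spike-in controls, to -1.17, and it was not called with the 75th percentile, with quantile normalization or with scan date as a block. After X1 it was not called with spike-in centring. Genes called were thus 3 of 9 after N1 (background 24.1%, with 16.1% higher and 7.94% lower), 2 of 9 after X1 (7.19%, with 5.05% higher and 2.14% lower) and 3 of 9 after X4 (19.8%, with 11.3% higher and 8.45% lower). For Trp53 after N1 the call was kept in 6 of 23 fits that left out 1 array, with values of 1.03 to 1.33, and after X1 it was lost without replicate 1 of the day 7 x-ray mice. The 2 control groups differed in the hepatocyte markers given above, and these comparisons use both. They also differed in Trp53, with a mean level of -1.05 at day 1 and -2.10 at day 7. The Trp53 means at days 1 and 7 were -1.95 and -1.80 after N1, -1.50 and -1.29 after X1, and -2.90 and -1.34 after X4. The changes given for Trp53 include this shift of the controls.

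Scan date limits the comparisons with x-rays most, and some of those with neutrons. No x-ray group shared a scan date with the controls of its day, so date and exposure cannot be told apart in any comparison of x-rays with controls. The 6 arrays of X4 at day 7 were scanned on 1 date and the 6 controls on another. Of the 6 arrays of N1 at day 7, only 1 shared the date of the 6 controls. Of the 6 arrays of N0.25 at day 3, 2 shared the date of the 5 controls. For N1 at day 1, 4 of 6 arrays were scanned on the date of the 5 controls, and within that date the differences were 0.75 for Bax, 0.91 for Bbc3, 0.79 for Fas, 1.29 for Aen and -0.89 for Trp53, of which Fas and Aen were called with date as a block. With date as a random block, Bbc3 and Aen were called after X1 at day 1, and Bax (0.99) and Tnfrsf10b (0.64) were not. Since no date held both groups, this block cannot separate date from exposure. Between the x-ray doses at day 1, the 1 mouse given 4 Gy on the date of 4 mice given 1 Gy differed from them by 0.77 for Ei24 and -1.10 for Trp53, and with date as a block neither gene was called. For N1 against X4 at day 7, 1 neutron mouse shared the date of all 6 x-ray mice, with differences of -0.73 for Aen and -0.98 for Ei24, and with date as a block, which rests on that mouse, neither was called. Between the x-ray doses at day 7, where 4 of 5 mice given 1 Gy shared the date of the 6 given 4 Gy, the differences within that date were 0.56 for Aen and 0.97 for Ei24, and both were called with date as a block.

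Other genes of the p53 response were measured alongside. Of a list of 37 further p53 targets, 34 were tested. At day 1, 11 of them rose and 4 fell after N1, 6 rose and 1 fell after X1, 13 rose and 4 fell after X4, and none was called after N0.25 by limma. The shares of the list called were 44.1% after N1, 20.6% after X1 and 17 of 34 genes after X4, beside 16.3, 6.45 and 29.4% of all genes, while the share that fell was 11.8% after N1 and after X4, beside 10.7 and 16.6% of all genes. The median log2 fold changes of the list were 0.20, 0.12, 0.41 and 0.05 in that order. Cdkn1a, which encodes the cell cycle inhibitor p21, rose by 4.20 (SE 0.37, 18.3-fold) after N1, by 3.11 (SE 0.28, 8.63-fold) after X1 and by 4.15 (SE 0.27, 17.7-fold) after X4. After N0.25 its log2 fold change was 2.48 (SE 0.42 and adjusted p = 0.0858). Psrc1, which encodes a spindle protein, rose by 2.67 and 2.42 after N1 and X1, and Phlda3, an inhibitor of Akt signalling, by 2.32 and 1.58. Mdm2, the ligase that degrades p53, had log2 fold changes of 0.52 (SE 0.13, adjusted p = 0.00957), 0.39 (SE 0.15) and 0.61 (SE 0.18, adjusted p = 0.0133) at day 1, none of them called.

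At day 7 the share of the further p53 targets called was 32.4% after N1, 2.94% after X1 and 26.5% after X4, beside 36.2, 3.74 and 15.8% of all genes, so that the counts after N1 and X1 lay near the background. After N1 5 rose and 6 fell, among them Psrc1 (1.92), Gadd45a (1.55), Cdkn1a (1.45, SE 0.27) and Mdm2 (0.80, SE 0.17) higher and Ephx1 (-1.61), an epoxide hydrolase, lower. These directions hold for centring on the array median. With spike-in centring the median over all genes in this comparison was -1.94, and the listed genes were not followed under that scaling. After X4 7 rose and 2 fell, with Cdkn1a at 3.07 (SE 0.23, 8.40-fold), Gtse1 at 2.19 and Psrc1 at 1.73. After X1 Tigar (-0.57) was the 1 gene called, and it fell. At day 3 after X1 Phlda3 (1.81, SE 0.28) and Psrc1 (1.42, SE 0.22) rose, and Cdkn1a, at 1.78 (SE 0.60, adjusted p = 0.15), was not called.

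Of 40 genes of the apoptosis machinery, such as ligands, adaptors, caspases and inhibitors, 33 were tested. The shares called at day 1 were 24.2% after N1, 9.09% after X1 and 39.4% after X4, beside 16.3, 6.45 and 29.4% of all genes, and at day 7 they were 21.2, 3.03 and 27.3%, beside 36.2, 3.74 and 15.8%. Fasl, the ligand of Fas, rose at day 1 after N1 (1.44, SE 0.25) and X1 (1.59, SE 0.23), and at day 7 after X4 (1.11, SE 0.21). At day 1, 5 genes rose and 3 fell after N1, with Tnfrsf1a, a receptor of tumour necrosis factor, at 1.32 and Casp2 at -1.13. After X1 3 rose and none fell, and after X4 9 rose and 4 fell, with the largest changes in Endog (2.87), Aifm1 (2.16) and Tnfrsf1a (1.68). At day 7, 1 rose and 6 fell after N1, a smaller share than of all genes. The one that rose was Bcl2l1, which encodes the survival protein Bcl-xL, at 2.78 (SE 0.22, 6.86-fold), and it also rose after X1, by 1.35 (SE 0.21), while Birc3 (-1.02) and Traf2 (-0.98) fell after neutrons. Of the 15 red cell precursor markers, 14 were called higher at day 7 after N1, 11 after X1 and 7 after X4. Their part in the Bcl2l1 values was not tested. The genes of this list were not followed under spike-in centring, so their directions at day 7 after N1 hold for centring on the array median. At day 3 Traf2 (-0.69) fell after N0.25 as the only gene of this list called. After X4 at day 7, 4 rose and 5 fell, among them Birc2 (-2.36) and Bmf (-1.46).

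The gene most alike to each of the 9 across the 13 group means, by Pearson's r as a description, was Cap2 for Bax (r = 0.963), Ttc7b for Bbc3 (0.967), Chek2 for Pmaip1 (0.877), Afg3l2 for Fas (0.983), Derl3 for Aen (0.981) and Gtpbp1 for Trp53 (0.936). For Perp it was a transcript named by its probe alone (0.995), and for Tnfrsf10b (0.927) and Ei24 (0.989) transcripts named by a transcript number alone. These group means share their arrays and their shifts in cell markers.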

How the data were processed

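Blood RNA of mice was hybridised to one-colour Agilent mouse arrays, and the deposited scanner files, made with Agilent Feature Extraction 12.0.2, hold a background-corrected intensity per spot. The authors also deposited a table of normalized log2 values. Only 12 of its 72 columns followed the array of their own sample, and 60 followed the array of another sample, 21 of them one of another group, so it served as an alternative for 0.25 Gy neutrons at day 1 alone. Whether the labels of the table or of the scanner files are exchanged is not known, and every comparison takes those of the scanner files as they stand. The columns on background, saturation and outliers hold a score per spot as deposited.

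The log2 of each spot was taken, spots flagged as outliers were left out, and the remaining spots of a probe were averaged. The median of the 19808 detected probes was then subtracted within the array. Detected probes had less than 25% of their spots flagged or dim over the 56 arrays of days 1 and 7. The brightest detected probe stood for a gene (16098 genes). Probes were renamed through RefSeq transcripts where these matched (28330 of 39429 probes, 1403 names changed). Each comparison was fitted with limma 3.58.1 in R 4.3.3 on its own groups, and changes over time on 4 groups, without the study's filter on 1.5-fold variation, which would remove genes that did not vary, and which was an alternative. Tables and plots used Python 3.11.15, pandas 2.3.3 and matplotlib 3.10.9. The fit was tested on simulated data. The 10 genes and all gene lists were chosen with earlier results of these data known. Beyond the 10 genes, the text names from each list the called genes with the largest changes, and Cdkn1a and Mdm2 throughout. Alternatives covered background, scaling, filters, probes, arrays in the fit, the test, blocks, a hepatocyte covariate (added after seeing the data) and leaving out each array. The number of arrays limits the precision. Arrays of a group were taken as separate mice, as the labels number them, and p-values measure the spread between these samples.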

Additional observations from a re-analysis of the deposited data

Results flagged for a closer look

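Among 117 groups of values of single genes, 9 held an array whose gap to its nearest neighbour was large for the range of the group, where chance gives about 1 in 20. Replicate 5 of N0.25 at day 1, the mouse with the highest hepatocyte level, stood apart in Aen (3.05), Ei24 (1.04) and Pmaip1 (-0.90). At day 3 after X1, replicate 4 stood apart in Perp (0.68) and replicate 1 in Ei24 (0.34). Replicate 4 of X4 at day 1 stood apart in Fas (2.26). Bax was low in replicate 3 of N0.25 (2.22) and in replicate 1 of N1 (2.35), both at day 7. Trp53 was high in replicate 5 of the day 3 controls (-1.0).

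The effect differed between day 1 and day 7 by limma's test of the difference in 8 cases. These were Fas (-1.13), Aen (-1.60) and Trp53 (1.20) after N1, Aen (-1.07) and Trp53 (1.27) after X1, and Fas (-1.10), Aen (-1.21) and Trp53 (2.62) after X4.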

How the results depend on the processing

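Of the 31 values called for single genes, 31 were called with the mean of all detected probes and with the random variance test, 30 with all 72 arrays in 1 fit, 28 without the detection filter, 27 with quantile normalization, 24 with the 75th percentile, 23 with the hepatocyte covariate, 21 with spike-in centring, 20 with the replicate block and 5 with normexp. The cause was not tested. Counts below are of the 9 genes, except where Eda2r is named, called in each comparison. They are given without the share of all genes called under the same setting. They therefore show how far the calls depend on the processing, and do not set the 9 genes against other genes.

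With normexp the counts were 0 after N1 and X1 at day 1, 3 after X4 at day 1 and 0 at day 7, 0 between the x-ray doses on both days, 0 for N1 against X4 at day 7, and 0 for the changes over time after X1 and X4. With the 75th percentile and with quantile normalization 3 were called after N1 at day 1. With spike-in centring the counts were 3 after N1 and 2 after X1 at day 1, 1 after N0.25 at day 3, 9 after N1 at day 7, 5 and 9 for these against X1 and X4, 6 between the x-ray doses at day 7, and 8 and 1 for the changes after N1 and X4. Over all genes the medians with this scaling were -1.94 after N1 at day 7, and -1.16 and -2.36 for that group against X1 and X4. Spike-in centring turned the sign at day 7 after N1 of Bax (-1.51), Bbc3 (-1.79), Pmaip1 (-1.46) and Trp53 (-1.58), of Pmaip1 against X4 (-2.24), and of the changes over time of Pmaip1 (-2.20) and Trp53 (-1.17) after N1.

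Without the detection filter, where Eda2r was also tested, 1 was called after X4 at day 7, and the 1 called after N1 and the 1 between the exposures to 1 Gy at day 7 were Eda2r, whose probes were not well above background there. The filter on variation left 1 after X4 at day 7 and 1 for the change after N1. All arrays in 1 fit gave 2 after N0.25 at day 1 (Bbc3 and Aen), 2 after X1 at day 3 and 1 for N1 against X4 at day 1. The hepatocyte covariate, chosen after seeing the data, gave 2 after X4 at day 1, 1 at day 7 and 1 between the x-ray doses at day 1.

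Scan date as a fixed block gave 2 after N1 at day 1, 0 between the x-ray doses at day 1 and 1 for N1 against X4 at day 7 (Tnfrsf10b, from 1 neutron mouse with a dim spot). As a random block it gave 2 after X1 at day 1, 2 at day 3 and 1 for their change. X-ray mice and controls of the same day shared no date, so the random block cannot separate date from exposure there. Slide as a fixed block gave 0 between the x-ray doses on both days, and as a random block 1 after X1 at day 3, 1 after X4 at day 7, 1 for N1 against X4 at day 1 and 1 for the change after X1.

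The replicate block gave 1 after N1 and 2 after X1 at day 1, and 1 between the x-ray doses at day 1 and at day 7. Same-numbered arrays correlated from -0.592 to 0.64 over the comparisons, and in none was every pair above 0.1, so the arrays share only a number.

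Leaving out each array gave 3 to 6 genes after N1, 3 to 4 after X1 and 4 to 7 after X4 at day 1, 0 to 1 for both exposures at day 3, 1 to 3 after X4 at day 7, 2 to 3 between the x-ray doses at day 1 and at day 7 and for N1 against X4 at day 7, and 2 to 4, 1 to 4 and 3 for the changes after N1, X1 and X4. The fewest after N1 at day 1 came without replicate 3 of the controls.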
